A study of Mus musculus with 75 samples.

Results

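The 10 transcripts described here encode acute phase proteins, plasma proteins that the liver releases in larger amounts during inflammation. They were taken by gene symbol from the 55536 genes of the deposited table: Saa1, Saa2, Saa3, Lcn2, Orm1, Orm2, Orm3, Hp, Crp and Itih4. All 10 were found. The choice used names only and no measured value.

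The study profiled liver RNA of C57Bl/6 mice, labelled male, whose dams drank water with tributyltin (TBT) or vehicle. TBT is an organotin compound, and the dose was 0.5 mg per kg each day, or 3.07 µM in the water, up to weaning. The offspring had no stated exposure of their own after weaning. Bulk RNA sequencing of total RNA gave 1 value per gene and library. At 3 weeks of age there were 8 vehicle and 8 TBT libraries. The 5-month groups were 8 vehicle livers, 16 TBT livers labelled low-risk for liver tumors and 10 TBT livers labelled high-risk. The 10-month groups were 6 vehicle livers, 5 low-risk TBT livers, 6 tumor-free (uninvolved) samples of high-risk TBT livers and 7 tumors of high-risk TBT livers. How risk was assigned is not given in the sources used here. A further 10-month vehicle library was labelled as a tumor and entered no comparison. Litters and dams are not given, so p-values measure the spread between these samples only.

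In the acute phase response, cytokines of the IL-6 family act on hepatocytes through gp130 and STAT3, and IL-1 and TNF act through NF-kappaB. C/EBP factors take part in both arms. Serum amyloid A proteins (Saa1, Saa2, Saa3) ride on high-density lipoprotein. Lipocalin 2 (Lcn2) binds the iron-carrying siderophores of bacteria, and haptoglobin (Hp) binds free hemoglobin. The orosomucoids (Orm1, Orm2, Orm3) carry lipophilic compounds in plasma, C-reactive protein (Crp) binds phosphocholine on microbes and damaged cells, and Itih4 belongs to the inter-alpha-trypsin inhibitor heavy chains. In mice the serum amyloid A genes respond strongly, whereas Crp responds far less than in humans.

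Totals per library ran from 2.83 to 45.4 M (mega) counts over 75 libraries. A pair of libraries of 3-week vehicle mouse 3 was summed. The libraries of uninvolved livers 3 and 6 differed far less than any other pair of a group and were counted as 1 sample, which left 73 samples. Beyond the vehicle library labelled as a tumor, 5 libraries stood apart by a low total, many detected genes or a high mitochondrial share: 5-month vehicle 9, low-risk 16, high-risk 10 and 15, and a library of 3-week vehicle mouse 3. The library labelled 3-week TBT 4 had 348 CPM (counts scaled to a common library total) of Xist, against its male label, and 5-month low-risk 24 had 84.6 CPM. Y-linked genes (Ddx3y, Eif2s3y, Kdm5d and Uty) summed to 7.08 CPM in TBT 4, against 165 to 208 CPM in the other 3-week TBT livers. In low-risk 24 they summed to 237 CPM. The hepatocyte markers Alb, Ttr, Apoc3, Cps1, Cyp2e1 and Tat were detected in every group, and their summed level was at least 53623 CPM in each sample.

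Several of the 10 genes are neighbouring duplicates, and this limits how far their counts can be told apart. On GRCm38 (GENCODE M21), Saa3 (chr7:46711998-46715700, minus strand), Saa1 (chr7:46740497-46742980, minus strand) and Saa2 (chr7:46751790-46754313, plus strand) lie in a cluster. Orm1 (chr4:63344560-63348163), Orm3 (chr4:63356162-63359511) and Orm2 (chr4:63362449-63365878) follow each other on the plus strand. The Saa1 and Saa2 transcripts were 94.4% identical and shared 13.2% of the 50-base words of Saa1. Those of Orm1 and Orm2 were 91.0% identical and shared 20.4%. Orm2 and Orm3 were 88.5% identical, and Saa1 and Saa3 73.1%. How reads that fit several genes were counted is not given in the sources used here, so values within the pair Saa1 and Saa2, and within the orosomucoids, may borrow from each other.

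The duplication extends into the promoters, which are printed below. RefSeq (GRCm38.p6) gave promoters for 8 of the 10 genes, all but Orm1 and Hp. Each line holds the 250 bases before the RefSeq start of the gene, which is the start meant below. Some RefSeq starts differ from the GENCODE positions above. The stretches of Saa2 and Saa3, and the last base of that of Crp, reach into the GENCODE gene. That of Lcn2 lies wholly within it (chr2:32384633-32388252). Capitals mark a match to a C/EBP-type word, TTGCNNAA, on either strand. The letters were chosen after the promoters had been seen.

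Saa1 (chr7:46742981-46743230, minus strand) and Saa2 (chr7:46751583-46751832, plus strand) were 95.6% identical over 249 aligned bases and carried the same word at 182 and 183 bases before the start:
Saa1: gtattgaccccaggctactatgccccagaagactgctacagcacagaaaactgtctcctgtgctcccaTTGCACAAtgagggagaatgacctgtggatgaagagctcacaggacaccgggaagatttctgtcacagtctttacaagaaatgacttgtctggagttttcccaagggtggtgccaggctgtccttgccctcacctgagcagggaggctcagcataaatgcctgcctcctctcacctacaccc
Saa2: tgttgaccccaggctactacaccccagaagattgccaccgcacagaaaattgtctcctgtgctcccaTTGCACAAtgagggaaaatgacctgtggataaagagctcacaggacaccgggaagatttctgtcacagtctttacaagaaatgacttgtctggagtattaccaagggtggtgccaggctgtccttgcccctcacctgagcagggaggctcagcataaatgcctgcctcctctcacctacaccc

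Orm3 (chr4:63355908-63356157, plus strand) and Orm2 (chr4:63362199-63362448, plus strand) were 89.0% identical over 245 aligned bases, with a match 121 and 120 bases before the start:
Orm3: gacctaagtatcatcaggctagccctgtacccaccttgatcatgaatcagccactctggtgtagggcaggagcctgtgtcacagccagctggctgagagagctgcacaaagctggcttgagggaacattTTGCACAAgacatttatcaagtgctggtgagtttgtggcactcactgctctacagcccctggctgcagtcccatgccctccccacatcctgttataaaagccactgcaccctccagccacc
Orm2: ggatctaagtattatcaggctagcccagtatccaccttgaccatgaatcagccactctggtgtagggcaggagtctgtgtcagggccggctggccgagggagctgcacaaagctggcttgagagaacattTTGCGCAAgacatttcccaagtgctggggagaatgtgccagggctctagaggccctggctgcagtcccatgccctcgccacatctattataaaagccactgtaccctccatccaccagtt

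Saa3 (chr7:46715677-46715926, minus strand) and Lcn2 (chr2:32387740-32387989, minus strand) held a match 99 and 216 bases before the start, in otherwise different sequence. Crp (chr1:172697806-172698055, plus strand) held none, and neither did Itih4, which is not printed:
Saa3: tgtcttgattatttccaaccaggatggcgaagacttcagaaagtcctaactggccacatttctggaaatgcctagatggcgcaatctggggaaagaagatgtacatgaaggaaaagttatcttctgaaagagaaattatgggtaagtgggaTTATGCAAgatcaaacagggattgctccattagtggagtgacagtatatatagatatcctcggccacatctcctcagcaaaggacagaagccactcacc
Lcn2: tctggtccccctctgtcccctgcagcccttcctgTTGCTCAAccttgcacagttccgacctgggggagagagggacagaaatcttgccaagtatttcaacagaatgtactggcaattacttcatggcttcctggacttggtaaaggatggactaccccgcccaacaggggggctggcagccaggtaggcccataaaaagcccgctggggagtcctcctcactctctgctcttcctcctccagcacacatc
Crp: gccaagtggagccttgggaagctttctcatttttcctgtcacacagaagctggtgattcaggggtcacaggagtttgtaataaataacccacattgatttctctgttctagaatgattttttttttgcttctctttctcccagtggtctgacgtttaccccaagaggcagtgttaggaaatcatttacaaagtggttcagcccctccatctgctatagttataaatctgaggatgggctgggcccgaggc

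The C/EBP-type word was in 6 of the 8 promoters, and in 9.56% of 32851 mouse promoters of the same length. The STAT-type word TTCNNNGAA was found on either strand only in Itih4, 51 bases before the start, and in 7.02% of all promoters. The NF-kappaB-type word (GGG, any 2 bases, TTTCC) was in none of the 8 and in 1.41% of all. The C/EBP-type letters were chosen after these promoters had been seen. The promoters of Saa1 and Saa2, and those of Orm2 and Orm3, are near copies. Setting these shares side by side is therefore no test, and the letter matches describe the sequence only.

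**Figure D1:**
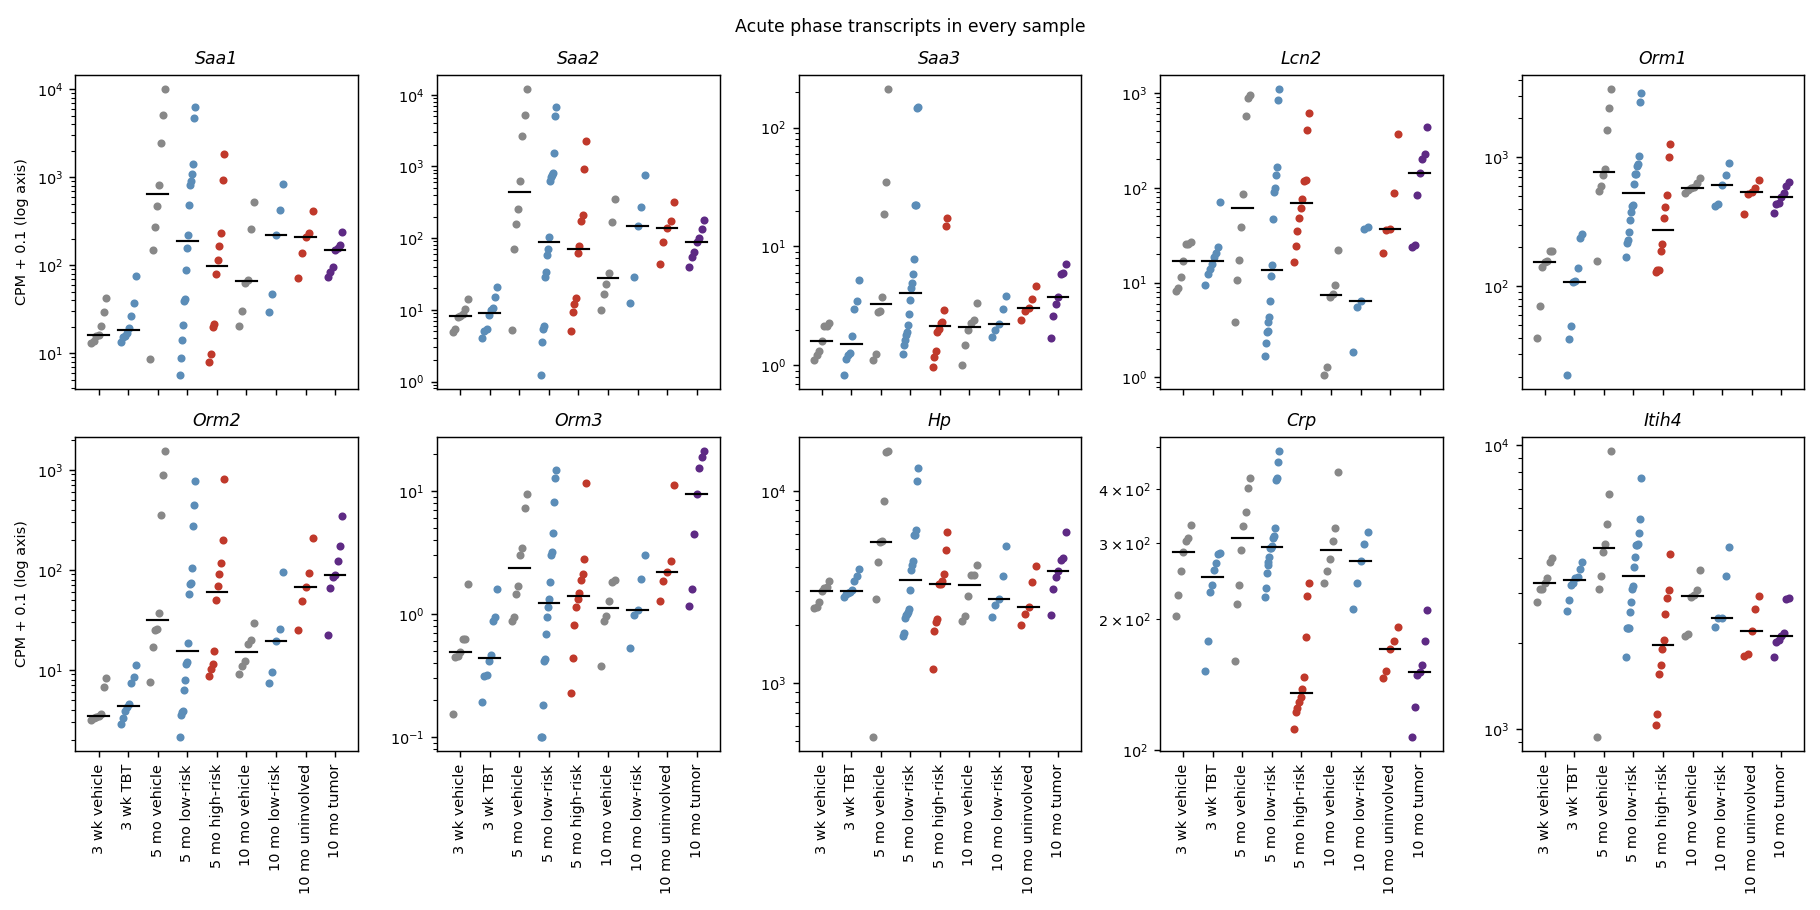
Level of each acute phase transcript in every sample, as CPM + 0.1 on a log axis that differs between genes, by group on the x axis. Points are samples and bars are group medians. The 5-month groups spread most, with Saa2 from 5.10 to 12092 CPM in vehicles, whereas Crp spreads little and is low in the 5-month high-risk, 10-month uninvolved and tumor groups.

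Per kilobase of transcript, the scale on which genes can be set side by side, Hp was the most abundant member in every group, with a median of 2405 CPM per kb in 10-month vehicles. There Itih4 followed at 986, Orm1 at 751, Crp at 171, Saa1 at 107, Saa2 at 45.8, Orm2 at 19.5, Lcn2 at 7.91, Saa3 at 3.64 and Orm3 at 1.33 CPM per kb. In 5-month vehicles Saa1 reached 1058 and Saa2 723 CPM per kb, and in tumors Lcn2 (158) and Orm2 (115) stood above Crp (89.3 CPM per kb).

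Crp kept a simple order over the groups. Its median was 135 CPM in 5-month high-risk livers, 151 in tumors and 171 in uninvolved tissue. In the other 6 groups it was 249.9 (3-week TBT), 273 (10-month low-risk), 286 (3-week vehicle), 289 (10-month vehicle), 294 (5-month low-risk) and 308 CPM (5-month vehicle). Neighbours within each of these sets overlapped, and none of the pairs tested within them passed.

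Most members rose between 3 weeks and 5 months in vehicle livers, and 6 of them fell again by 10 months. Both comparisons share the 5-month vehicle livers, so the rise and the fall are not independent. Of the 10 genes, 8 were higher at 5 months than at 3 weeks, against 11.9% of 14962 genes tested, and 0 were lower (edgeR quasi-likelihood test, adjusted p under 0.05). Saa2 stood at 4.82 to 13.9 CPM in the 7 vehicle livers of 3 weeks, with a median of 8.07. In the 8 vehicle livers of 5 months it had 5.10, 69.7, 158, 256, 621, 2658, 5218 and 12092 CPM (a median of 438), and all but vehicle 9, the shallowest library, lay above every 3-week vehicle. Over the batch 1 livers that this test used, the log2 fold change of Saa2 was 8.45 ± 1.41 (SE), with an edgeR adjusted p of 0.000201, and 6 of 7 livers were above all 3-week vehicles.

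The other rises with age ran from 1.45 for Hp to 6.97 for Saa1 on the log2 scale. Orm2, the orosomucoid with the steepest rise, increased by 6.51 ± 1.10 (adjusted p = 0.00023), Orm1 by 3.35 ± 0.48 (adjusted p = 2.59e-05) and Lcn2 by 4.36 ± 1.02 (adjusted p = 0.00391). Crp and Itih4 did not pass, at 0.14 (95% interval -0.21 to 0.50) and 0.52 (-0.06 to 1.10). Without vehicle 9, Itih4 passed as well (0.69, edgeR adjusted p = 0.00905). Orm3 was the scarcest member, with 1 to 23 counts per sample at 3 weeks. Without vehicle 3, Saa3 (4.62 in all) was at 2.77, Saa2 at 7.45 and Saa1 at 6.12, and without vehicle 6 Orm2 was at 5.61. Of all genes tested, 12.3% were lower at 5 months than at 3 weeks, and markers of other liver cells moved too. Lower were 6 of 8 macrophage, 4 of 5 stellate and 4 of 4 endothelial markers, and 1 of 6 hepatocyte markers. Their summed levels ran from 163 to 537 CPM against 353 to 647 CPM for macrophages, from 94.1 to 284 against 406 to 513 CPM for stellate cells and from 163 to 372 against 381 to 468 CPM for endothelium. Their part in the rise of the members was not tested.

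From 5 to 10 months, 6 of 10 members fell in vehicles, against 7.41% of genes tested that were lower and 6.68% that were higher. No member rose. Lcn2 had 0.955, 1.203, 6.94, 7.53, 9.21 and 21.8 CPM in the 6 vehicle livers of 10 months, below the median of 61.5 CPM in the 5-month vehicles. Its log2 fold change was -5.54 ± 1.15 (edgeR adjusted p = 0.00505). Saa2 (-4.91), Orm2 (-4.64), Saa3 (-4.35), Saa1 (-4.11) and Hp (-1.39, adjusted p = 0.0347) also fell, and the call on Hp was lost in 8 of 13 fits that left out a single sample. Without vehicle 9 of 5 months, and also by DESeq2, Itih4, Orm1 and Orm3 passed as well and 9 of 10 members fell. Single livers moved the sizes: without 5-month vehicle 3, Saa3 was at -2.50, Saa2 at -3.91 and Saa1 at -3.27, and without 5-month vehicle 6 Orm2 was at -3.74. Without 10-month vehicle 5, Lcn2 was at -6.17, Saa2 at -5.94 and Saa1 at -4.98. All 6 livers of 10 months lay below the mean of the 5-month vehicles for each of these genes, but the ranges of the ages overlapped for all 6 of them. Ages came from separate cohorts of animals, and what besides age differed between them was not tested. Of the neutrophil and stellate markers, 2 of 6 and 2 of 5 tested were lower at 10 than at 5 months, with sums of 1.74 to 3.56 against 2.62 to 23.5 CPM and of 174 to 278 against 94.1 to 284 CPM, and their part was not tested.

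The spread between livers of 5 months was wide in every group, and it was shared by most members. The 10 genes together took 0.187% to 4.54% of all counts in the 8 vehicle livers, 0.409% to 3.45% in the 16 low-risk livers and 0.324% to 1.85% in the 10 high-risk livers. In the 4 groups of 10 months that were compared, the share lay between 0.456% and 1.25%, and at 3 weeks between 0.545% and 0.791%. Vehicles 3, 4 and 6, low-risk 3 and 24 and high-risk 1 and 9 were the 3, 2 and 2 highest livers of their groups for Saa1, Saa2, Saa3, Lcn2, Orm1 and Hp alike. For Hp they had 16184, 8858 and 15877 CPM among vehicles, 13168 and 11296 CPM among low-risk and 6143 and 4917 CPM among high-risk livers. The medians of these groups were 5450.5, 3446 and 3282 CPM.

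Saa3, an isoform also made outside hepatocytes, showed the same livers. It had 212, 18.7 and 34.97 CPM in vehicles 3, 4 and 6 and at most 3.66 CPM in the other vehicles. Low-risk 3 and 24 had 149 and 145 CPM, and the remaining low-risk livers at most 22.3 CPM. High-risk livers reached at most 17.4 CPM of Saa3, with a median of 2.06 CPM. Summed neutrophil markers (S100a8, S100a9, Ly6g, Mpo, Elane, Camp, Ngp, Retnlg and Cxcr2) were 14.003, 7.90 and 23.5 CPM in vehicles 3, 4 and 6, 60.1 and 20.1 CPM in low-risk 3 and 24, and 55.8 and 7.74 CPM in high-risk 1 and 9. The group medians of that sum were 7.43, 3.85 and 5.68 CPM, and its part in the spread was not tested. In bulk liver, more cells of a type and more RNA per cell cannot be told apart.

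Within groups, 44 of the 45 pairs of members were correlated over 71 samples once group and batch means had been removed from log2(CPM + 0.1) (Pearson permutation test, Benjamini-Hochberg over 45 pairs). By Spearman's rho 41 of 45 passed. The closest pair was Saa1 and Saa2 (r = 0.990, rho = 0.981, permutation p = 1e-05, the smallest these resamples can give), which also share sequence. Lcn2 and Orm2, which lie on different chromosomes, had r = 0.914 and rho = 0.894, and r stayed at 0.896 without the 2 samples farthest from the median of Lcn2. Hp and Itih4 had r = 0.903, rho = 0.870 and 0.851 without their 2 farthest samples. Over the 36 pairs without Crp, r ran from 0.565 to 0.990, and all 36 passed by both measures.

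Crp stood apart. Its 9 pairs had r from 0.203 (with Orm3, adjusted permutation p = 0.127) to 0.568 (with Orm1), and 5 of 9 passed by Spearman's rho. Without the 2 farthest samples these values fell to between 0.147 and 0.472. The pairs of Crp with Saa3, Lcn2 and Orm2 passed by Pearson's r and not by Spearman's rho, at an adjusted p of 0.134, 0.065 and 0.086. The non-member genes most like Saa2 over the same 71 samples, among 9775 genes averaging 5 CPM or more, were Fgl1 (r = 0.869), Lrg1 (r = 0.829) and Itih3 (r = 0.798). For Orm2 they were Fgl1, Hpx and Lrg1 (r = 0.815, 0.785 and 0.784), and for Lcn2 they were Tmem176a, Fgl1 and Slc3a1 (r = 0.812, 0.807 and 0.796). Fgl1, Lrg1, Itih3 and Hpx were also on the list of other acute phase genes used below.

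**Figure D2:**
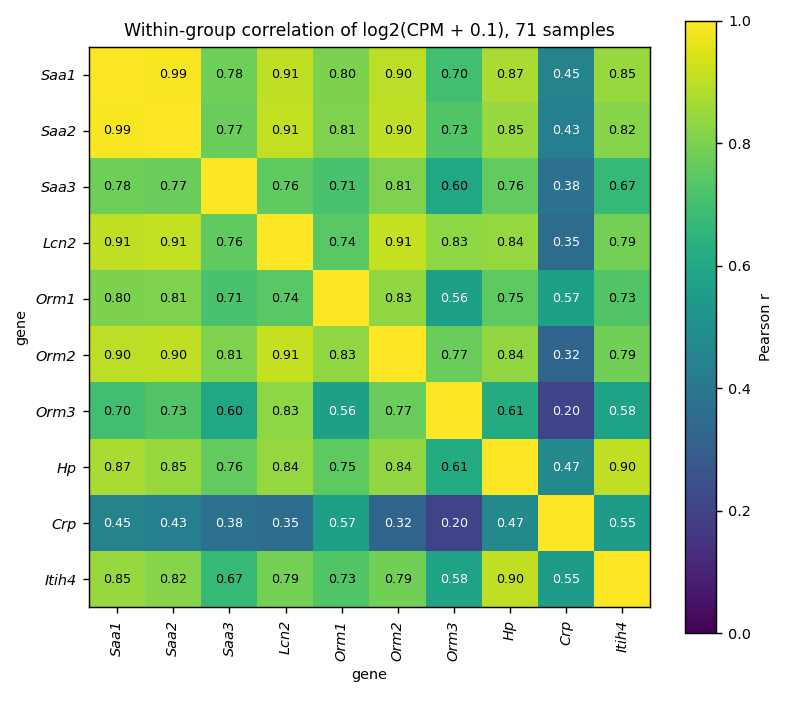
Pearson r between members, across 71 samples, of deviations of log2(CPM + 0.1) from the mean of the group and batch, with genes on both axes. Values run from 0.203 (Orm3 and Crp) to 0.990 (Saa1 and Saa2), and the row of Crp is the lowest.

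At 3 weeks no member passed the test between TBT and vehicle livers. Of the 9 members tested 0 passed, as did 0 of 14050 genes (0% called, edgeR quasi-likelihood test). An unadjusted p under 0.05 was reached by 474 of all genes and by 0 members, and DESeq2 called 0 members as well. Orm3 fell below the filter on low counts. The log2 fold changes ran from -0.21 for Crp (95% interval -0.49 to 0.07) to 0.43 for Saa3 (-0.36 to 1.23). Hp, at 2459 to 3400.2 CPM in vehicles and 2794 to 3930.3 CPM in TBT livers, was at 0.14 (-0.08 to 0.36). TBT liver 2 had the highest Lcn2 (70.9 CPM), Saa1 (75.9 CPM), Saa2 (20.6 CPM) and Orm2 (11.1 CPM) of all 3-week livers.

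Low-risk livers were not told apart from vehicles by any member either. At 5 months 0 of 10 members passed, and 0 of 14773 genes (0%), with 934 genes and 0 members at an unadjusted p under 0.05. The intervals were wide for the members that varied, as for Saa1 (-0.81, 95% interval -3.56 to 1.94), and narrow for Crp (0.15, -0.21 to 0.50). At 10 months 0 of 10 members and 0 of 16338 genes (0%) passed, with 688 genes and 0 members at an unadjusted p under 0.05. DESeq2 called 0 members at both ages. There the interval for Crp was -0.49 to 0.11 and that for Lcn2 was -0.99 to 3.26.

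High-risk livers of 5 months had less Crp and less Itih4 than low-risk livers, and no member was higher. These 2 of 10 members stand beside 38.9% of 14773 genes called in this comparison, 18.5% of them lower. Crp had 112, 122, 125, 129, 132, 138, 147, 183, 226 and 242 CPM in the 10 high-risk livers and 226 to 489 CPM, with a median of 294, in the 16 low-risk livers. High-risk 22 and 1 overlapped the low-risk livers, and the other 8 lay below all of them. The log2 fold change was -1.03 ± 0.16 (edgeR adjusted p = 3.78e-06), a level 2.04-fold lower, and the call held in each of 26 fits that left out a single sample.

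Itih4 had a median of 1976 CPM in high-risk livers (1034 to 4136) and of 3441 CPM in low-risk livers (1784 to 7649). In 4 of 10 high-risk livers it was below all low-risk livers. Its log2 fold change was -0.74 ± 0.26 (edgeR adjusted p = 0.0225), and the call was lost without the libraries that stood apart, in batch 1 alone and without the filter on low counts. Against 5-month vehicles, where 15.8% of genes were called (8.47% higher and 7.38% lower), Crp had a log2 fold change of -0.88 ± 0.20 (edgeR adjusted p = 0.00282) and Itih4 of -1.02 ± 0.34 (adjusted p = 0.0334). No other member passed. These comparisons share the high-risk livers. In batch 1 alone, with 3 high-risk livers, neither call against vehicles remained, although the values were -1.07 for Crp (edgeR adjusted p = 0.131) and -1.17 for Itih4 (adjusted p = 0.388), and the call on Itih4 was also lost when any of vehicles 3, 5, 6 and 8 or high-risk 15 was left out.

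Hepatocyte markers moved in the same comparison: 3 of 6 were lower and 1 higher in high-risk livers, and their sum ran from 54423 to 155255 CPM against 67377 to 166126 CPM in low-risk livers. Their part in the lower Crp and Itih4 was not tested. For the 8 other members the log2 fold changes between high-risk and low-risk livers ran from -2.32 (Saa3, adjusted p = 0.0698) to 0.39 (Orm2, 95% interval -1.72 to 2.50). Saa1 was at -1.49 (-3.83 to 0.85) and Lcn2 at 0.02 (-2.07 to 2.12). Without high-risk 1, one of the 2 livers of that group with the most Saa1 and Hp, Saa3 (-2.95) and Orm1 (-1.34) also passed, and 4 members were called. DESeq2 called Saa3 as well.

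Lcn2 and Saa1 kept a different proportion in high-risk than in low-risk livers of 5 months. This pair was chosen after the values had been seen, so the values are a description without a test. The log2 ratio of Lcn2 to Saa1 lay between -1.59 and 2.13 in the 10 high-risk livers and between -5.70 and -1.71 in the 16 low-risk livers, so that all 10 were above all 16. Its mean was -0.08 ± 1.31 (SD, n = 10) against -2.99 ± 1.07 (SD, n = 16). The difference was 4.14 within batch 1 and 2.27 within batch 2, with no overlap in either. Vehicles ran from -4.66 to -1.18, and 8 of 10 high-risk livers were above all 8 vehicles. At 3 weeks the ratio ran from -0.76 to 0.32 in vehicles and from -1.27 to 0.65 in TBT livers. Both ranges lie within that of the 5-month high-risk livers, so such a ratio is not particular to high-risk livers. The separation depended on the choice of Saa1. With Saa2 in its place, 5 of 10 high-risk livers were above all 16 low-risk livers, and 6 of 10 above all vehicles. Within batch 2 that count against low-risk livers was 3 of 7, and the mean difference over both batches was 2.51.

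Among high-risk and low-risk livers with under 25 CPM of Saa1, a cut that was not planned, the levels of Lcn2 differed too. Over all livers of these groups Lcn2 did not pass, at a log2 fold change of 0.02. High-risk 15, 10, 17 and 25 had 7.87, 9.68, 19.9 and 21.2 CPM of Saa1 with 34.5, 24.5, 16.2 and 47.9 CPM of Lcn2. High-risk 15 and 10, with the 2 highest ratios (2.13 and 1.34), are among the libraries that stood apart, by a mitochondrial share of 14.5% and by 39669 detected genes. Low-risk 19, 18, 23 and 14 had 5.52, 8.62, 14.1 and 20.7 CPM of Saa1 with 1.58, 2.20, 2.88 and 6.33 CPM of Lcn2. Counts of Lcn2 in the low-risk group went down to 14. These low-risk livers were all of batch 2, whereas high-risk 15 was of batch 1. Duct markers (Krt19, Krt7, Epcam, Sox9 and Spp1, none at 0) moved alongside: 4 of 5 were higher in high-risk than in low-risk livers, and their sum had a median of 279 CPM (32.8 to 350) against 46.5 CPM (27.3 to 221). Their part in the ratio was not tested. High-risk 1 and 22, with duct sums of 69.5 and 32.8 CPM, had the 2 lowest ratios of the high-risk group (-1.57 and -1.59). Duct sums also reached 265 CPM in a 5-month vehicle and 221 CPM in a low-risk liver. No vehicle had a ratio above -1.18, and no low-risk liver one above -1.71. How the ratio followed the duct sum from liver to liver was not tested.

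**Figure D3:**
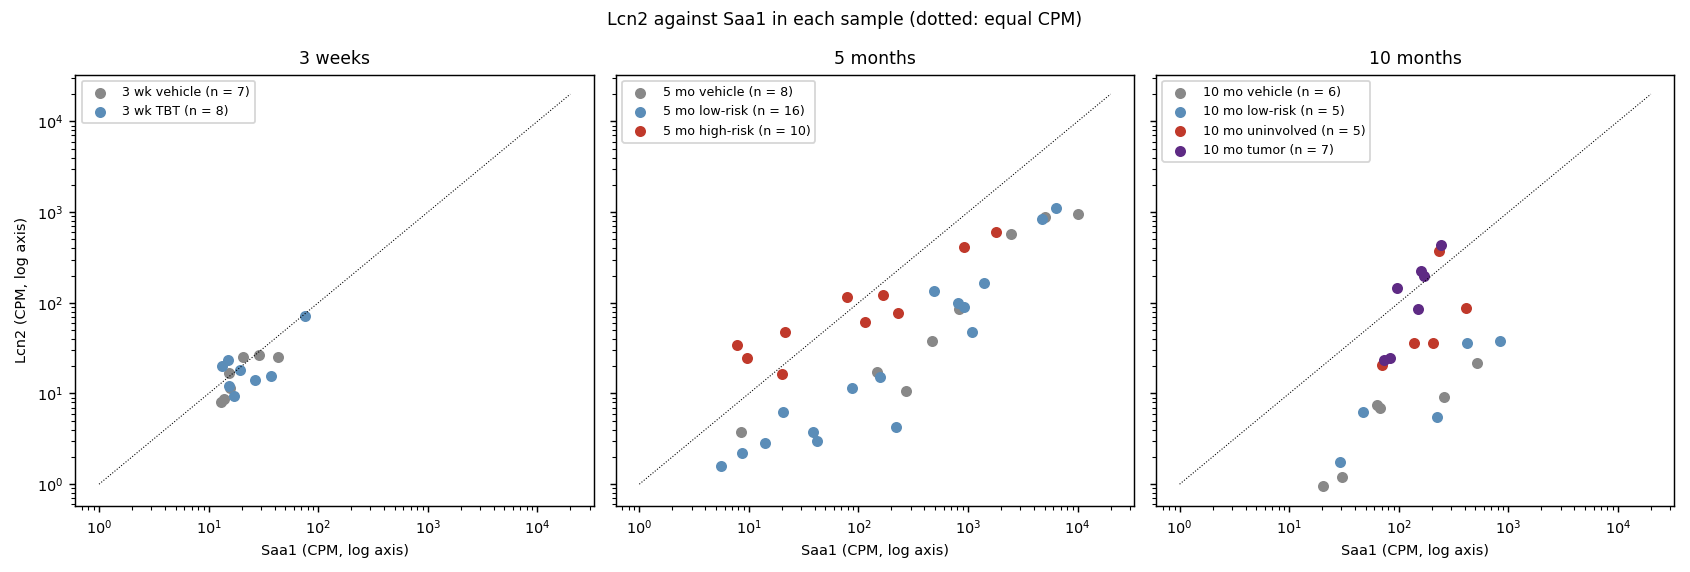
Lcn2 (y axis) against Saa1 (x axis), both in CPM on log axes, in each sample of the 3 ages. Within an age, the 10 high-risk livers of 5 months and the 10-month uninvolved livers and tumors have a higher ratio of Lcn2 to Saa1 than every low-risk liver. Across ages they overlap, since 4 uninvolved samples have lower ratios than 5-month low-risk 14. The 3-week vehicle and TBT livers lie within the range of ratios of the 5-month high-risk livers. The dotted line marks equal CPM.

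At 10 months, uninvolved tissue of high-risk livers had less Crp and more Lcn2 than low-risk livers. These 2 of 10 members stand beside 52.4% of 16338 genes called, 27.7% higher and 24.7% lower. Crp had 146, 152, 171, 178 and 192 CPM in the 5 uninvolved samples and 211, 242, 273, 299 and 318 CPM in the 5 low-risk livers. The groups did not overlap. The log2 fold change was -0.69 ± 0.15 (edgeR adjusted p = 0.00102), and the call held in all 10 fits that left out a sample. Signs of library quality moved with these groups: the uninvolved libraries had mitochondrial shares of 4.20% to 5.85% and 24676 to 28715 detected genes, against 2.94% to 3.08% and 21663 to 22578 in low-risk livers and 3.14% to 3.83% and 21078 to 22006 in vehicles. Their part in the results on uninvolved tissue was not tested.

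Lcn2 had 20.4, 36.02, 36.3, 87.5 and 368 CPM in uninvolved samples and 1.73, 5.48, 6.31, 36.3 and 38.0 CPM in low-risk livers. Uninvolved 1 and the summed sample 3 and 6 were above all low-risk livers, and the other 3 lay below low-risk 2 and 8 and above low-risk 4, 9 and 10. The log2 fold change was 2.64 ± 1.05 (edgeR adjusted p = 0.0476). The call was lost without low-risk 4, 9 or 10, uninvolved 1 or the summed sample, where the value ranged from 1.37 to 3.14 over all samples left out. Orm2 (1.497, adjusted p = 0.0809), Orm3 (1.44, adjusted p = 0.0602) and Itih4 (-0.40, adjusted p = 0.0961) did not pass, and Saa1 and Saa2 were at -0.58 (95% interval -2.70 to 1.53) and -0.68 (-3.08 to 1.72).

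Against the 10-month vehicles, 4 of 10 members were higher and 1 lower in uninvolved tissue, beside 31.2% and 26.5% of all genes (57.7% called). Lcn2 rose 13.7-fold (log2 3.78 ± 1.04, edgeR adjusted p = 0.00689), from 7.95 ± 7.62 CPM (SD, n = 6) to 109.7 ± 147 CPM (SD, n = 5), with 4 of 5 samples above all vehicles. The summed sample 3 and 6 weighed on this size: without it the log2 fold change was 2.50 for Lcn2, 1.82 for Orm2 and 0.78 for Orm3, and without vehicle 5 it was 4.41 for Lcn2. Orm2 had 25.2, 48.9, 66.9, 92.6 and 209 CPM against 8.91 to 29.2 CPM in vehicles, a log2 fold change of 2.42 ± 0.67 (adjusted p = 0.00692). All samples but uninvolved 7 were above all vehicles. Orm3 (1.77 ± 0.59, adjusted p = 0.0183) and Saa3 (0.70 ± 0.28, adjusted p = 0.0382) were higher at levels of at most 11.1 and 4.59 CPM. The call on Orm3 was lost without the summed sample, and that on Saa3 in 5 of 11 fits without a sample: uninvolved 5 or 12, or vehicle 1, 2 or 6.

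Crp was lower than in vehicles as well, with a log2 fold change of -0.88 ± 0.14 (edgeR adjusted p = 6.66e-05), with all 5 samples below the 243 to 438 CPM of the vehicles. Orm1, the most abundant orosomucoid, was at 363 to 664 CPM against 530.5 to 689.7 CPM and did not pass (-0.17, 95% interval -0.55 to 0.20). Hp was at -0.14 (-0.64 to 0.37), and Saa1 and Saa2 at 0.39 (-1.63 to 2.40) and 0.59 (-1.70 to 2.88). Adding the tumor-labelled vehicle library to the vehicles left 2 of the 5 calls and ended those on Lcn2 (1.81), Orm2 and Orm3. Uninvolved livers and vehicles differ in exposure and in risk label at once, and this comparison cannot tell these apart. Between low-risk livers, which share the exposure, and the 10-month vehicles 0 of 10 members passed. The values there were imprecise, with Lcn2 at 1.14 ± 0.99 (SE) and Orm2 at 0.92 ± 0.66. The part of the exposure was not tested.

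The log2 ratio of Lcn2 to Saa1, again a description, also differed at 10 months. It lay between -2.51 and 0.67 in uninvolved samples, between -5.35 and -2.90 in low-risk livers and between -4.81 and -3.07 in vehicles, so all 5 uninvolved samples were above both. With Saa2 in place of Saa1, all 5 uninvolved samples were above all low-risk livers, but only 3 of 5 were above all vehicles. Duct markers were again higher, 5 of 5 against low-risk livers and 5 of 5 against vehicles. Their sum was 105 to 209 CPM in uninvolved samples, 37.2 to 59.8 CPM in low-risk livers and 38.0 to 54.0 CPM in vehicles. Neutrophil markers summed to 1.15 to 3.83 CPM in uninvolved samples, 2.73 to 5.42 CPM in low-risk livers and 1.74 to 3.56 CPM in vehicles, with Ly6g at 0 in all of these. Hepatocyte markers were lower, 4 of 6 with 1 higher against low-risk livers, and summed to 58265 to 87037 CPM against 97336 to 109530 CPM. The parts of duct cells and hepatocytes in the changes of Lcn2 and Crp were not tested.

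An interaction term asked if the gap between risk groups was of another size at 10 months than at 5. None of the 10 members passed, where 0.448% of 16084 genes did (0.18% upward and 0.267% downward), no member had an unadjusted p under 0.05, and DESeq2 called 0. The changes ran from 0.28 for Hp to 2.67 for Saa3 (unadjusted p = 0.0785, adjusted p = 0.478), with Lcn2 at 2.60 ± 1.82 (edgeR adjusted p = 0.596) and Crp at 0.34 ± 0.25 (adjusted p = 0.617). The rise of Lcn2 at 10 months is therefore not shown to differ from its difference at 5 months.

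**Figure D4:**
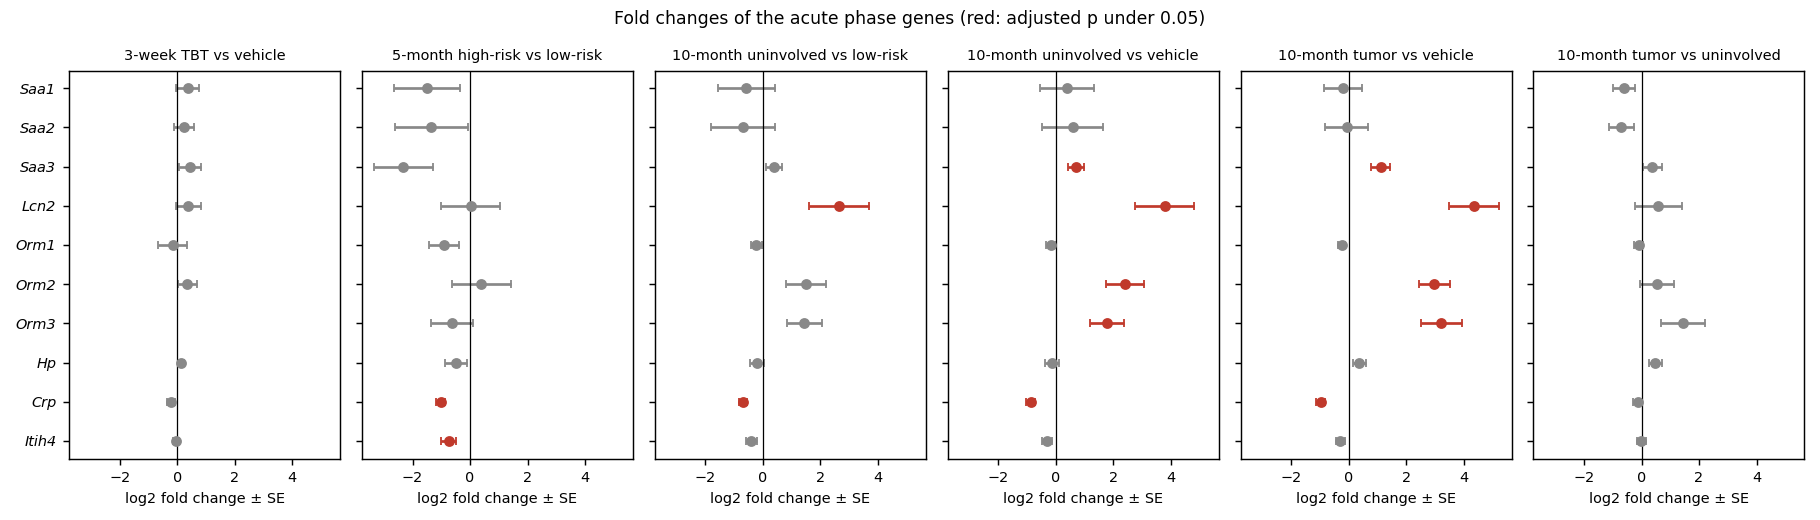
Log2 fold change ± SE of each member (rows) in 6 comparisons (panels), from edgeR, with red points for an adjusted p under 0.05. Crp lies at -1.03 to -0.69 wherever high-risk or uninvolved tissue is compared with low-risk livers, and Lcn2, Orm2 and Orm3 lie highest in the comparisons of uninvolved tissue and tumors with vehicles.

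Tumors had more Lcn2, Orm2, Orm3 and Saa3 and less Crp than vehicle livers. These 4 higher and 1 lower of 10 members stand beside 24.8% and 21% of 15293 genes (45.9% called). Lcn2 had 23.5, 24.5, 84.4, 144, 199.9, 225 and 439 CPM in the 7 tumors, all above the vehicles, for a log2 fold change of 4.37 ± 0.87 (edgeR adjusted p = 0.00119), or 4.99 without vehicle 5. Orm2 had a median of 89.3 CPM (22.2 to 349) against 15.1 CPM, with 6 of 7 tumors above all vehicles (2.98 ± 0.54, adjusted p = 0.000656).

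Orm3 reached its highest levels in tumors, at 1.07, 1.49, 4.38, 9.47, 15.2, 18.8 and 21.2 CPM against at most 1.80 CPM in vehicles (3.22 ± 0.71, adjusted p = 0.00246). Tumors 6 and 7 were within the range of the vehicles and the other 5 above it. Saa3 rose by 1.11 ± 0.35 (adjusted p = 0.0165), and Crp had a log2 fold change of -0.98 ± 0.16 (edgeR adjusted p = 0.000212), with all 7 tumors at 107 to 210.0 CPM and below all vehicles. These 5 calls held in each of 13 fits that left out a sample, and the one on Lcn2 was lost when the tumor-labelled library joined the vehicles. Saa1 and Saa2 were at -0.19 (95% interval -1.60 to 1.21) and -0.08 (-1.68 to 1.53). Hepatocyte markers were lower in tumors than in vehicles, 4 of 6 with 0 higher, and summed to 62146 to 103793 CPM against 103265 to 132546 CPM. Their part in the lower Crp was not tested. Duct markers were 5 of 5 higher in tumors, with a sum of 145 to 768 CPM, and their part in the rise of Lcn2 was not tested. Adipocyte markers, 3 of 5 of which could be tested, were all 3 higher in tumors, with a sum of 0.307 to 39.2 CPM against 0.0399 to 4.36 CPM, and macrophage markers moved both ways (2 of 8 higher, 3 lower). Their part in the rise of Saa3 was not tested.

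Between tumors and uninvolved tissue none of the 10 members passed, where 18.1% of 16362 genes did (7.55% higher and 10.5% lower). No member had an unadjusted p under 0.05. Hp was at a log2 fold change of 0.47 (95% interval -0.01 to 0.96). Wider intervals surrounded Orm3 at 1.43 (95% interval -0.21 to 3.08), Saa2 at -0.70 (-1.66 to 0.25) and Saa1 at -0.62 (-1.44 to 0.20). DESeq2 called 0 members too.

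Tumor and uninvolved libraries with the same number were taken as pairs of a mouse, and fits by pair gave calls that differed with the pairs used. With the mouse as a block, 6 pairs gave lower Saa2 (-0.82, edgeR adjusted p = 0.0495) and Saa1 (-0.71, edgeR adjusted p = 0.048) in tumors. That fit entered the uninvolved libraries 3 and 6 as separate mice, although the main fits count them as 1 sample, so its p-values may be too small. The 4 pairs without mice 3 and 6, whose uninvolved libraries were nearly alike, gave higher Lcn2 (1.53, adjusted p = 0.0275) and Orm3 (2.25, adjusted p = 0.0239). No member passed in both. Orm3 had 15.2, 9.47 and 21.2 CPM in tumors 1, 5 and 12 and 2.09, 1.75 and 2.58 CPM in the uninvolved tissue of these mice. In mouse 7 it had 1.07 CPM in the tumor and 1.18 CPM outside it. Lcn2 was higher in the tumor in 4 of 4 mice, from 87.5 to 225 CPM in mouse 1, from 36.3 to 199.9 in mouse 5, from 36.02 to 144 in mouse 12 and from 20.4 to 23.5 CPM in mouse 7. Saa2 was lower in the tumor in 4 of 4 mice, most in mouse 1 (100.01 against 315 CPM).

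**Figure D5:**
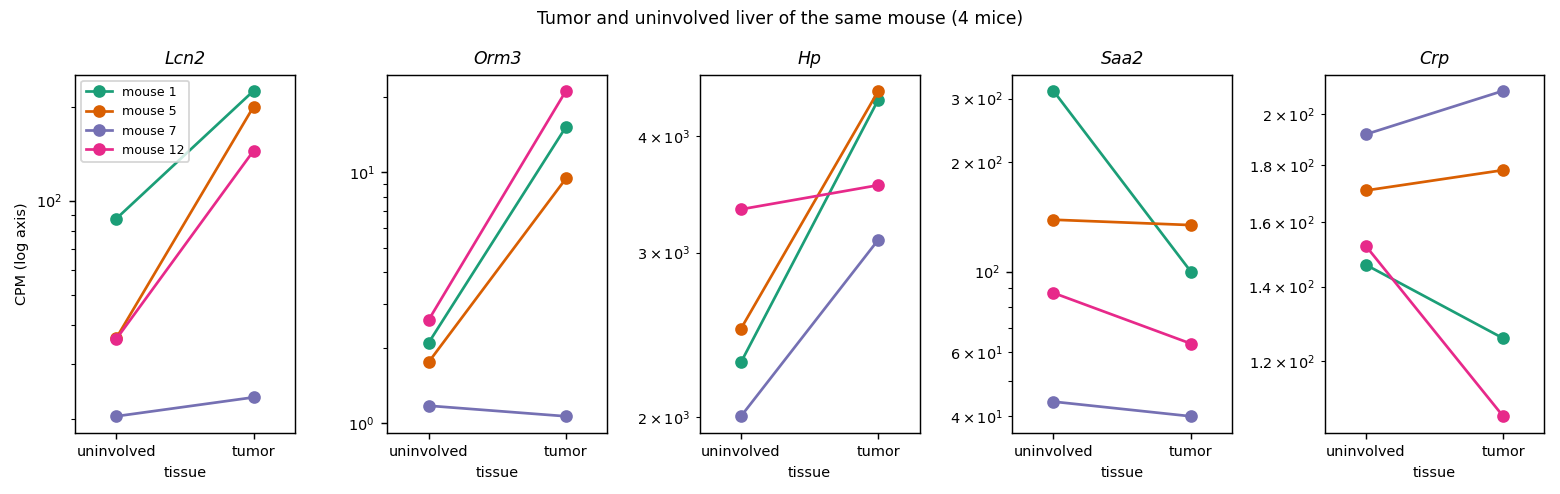
CPM on a log axis of 5 members in uninvolved tissue and tumor of 4 mice, with a line for each mouse. Lcn2 and Orm3 are higher in the tumors of mice 1, 5 and 12 and change little in mouse 7, Hp is higher in mice 1, 5 and 7 and changes little in mouse 12 (log2 0.086), and Saa2 is lower most clearly in mouse 1.

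Other acute phase genes were lower or did not pass in high-risk livers of 5 months. Of 15 other positive acute phase genes, 0 were higher and 5 lower against low-risk livers, beside 20.3% and 18.5% of all genes, with a median log2 fold change of -0.56 against -0.01 over all genes. Saa4, the constitutive serum amyloid A, fell by 1.52 ± 0.34 (edgeR adjusted p = 0.000603). Fibrinogen gamma (Fgg) fell by 0.71 and complement factor B (Cfb) fell by 0.70. In 10-month uninvolved tissue 1 of 15 was higher and 3 were lower than in low-risk livers (median -0.13 against 0.05), where 27.7% and 24.7% of all genes were called. Apcs, the serum amyloid P component and a pentraxin like Crp, had 42.5 ± 11.6 CPM (SD, n = 5) against 123 ± 44.5 CPM (SD, n = 5). Hamp, which encodes the iron hormone hepcidin, rose by 1.22 ± 0.28 (edgeR adjusted p = 0.0021), and in tumors it fell by 1.41 ± 0.38 against uninvolved tissue (adjusted p = 0.0231).

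Negative acute phase genes are those that inflammation lowers. Of 9, 5 fell and 0 rose in high-risk against low-risk livers of 5 months (median -0.66, beside 18.5% of all genes lower), led by Rbp4 (-0.78), Apoa2 (-1.15) and Apoa1 (-0.81). In uninvolved against low-risk tissue 4 of 9 fell and 0 rose (median -0.16, beside 24.7% of all genes lower), among them Apoa2 (-0.59), Ttr (-0.60) and Alb (-0.41). Alb and Ttr are also among the 6 hepatocyte markers, so the lists are not independent. Apoa1 alone was called in tumors against uninvolved tissue, at -0.55 ± 0.16 (edgeR adjusted p = 0.0271). With age in vehicles, from 3 weeks to 5 months, 9 of 15 positive genes rose and 0 fell (median 0.86). Of the 9 negative genes 0 rose and 3 fell there, beside 11.9% of all genes higher and 12.3% lower. From 5 to 10 months 9 of 15 positive genes fell, beside 7.41% of all genes lower.

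Genes of IL-6 type receptors, STAT3 and C/EBP gave counts near the shares of all genes. Of 13 tested, 2 rose and 3 fell in the 5-month high-risk livers against low-risk ones, where 20.3% of all genes were higher and 18.5% lower. Lifr, the leukemia inhibitory factor receptor, fell by 1.33 ± 0.18 (edgeR adjusted p = 6.12e-07), and Pim1, a STAT3 target, fell by 0.82. Osmr, the oncostatin M receptor, rose by 1.12 ± 0.25 (adjusted p = 0.000669). At 10 months 4 were higher and 4 lower in uninvolved against low-risk tissue (27.7% and 24.7% of all genes), with Osmr at 17.7 ± 2.09 CPM (SD, n = 5) against 4.98 ± 0.986 CPM (SD, n = 5). Cebpd rose by 1.10 and Cebpb fell by 0.87 there. Pim1 (-0.49) and Osmr (-0.48) were lower in tumors than in uninvolved tissue.

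Of the 15 genes of IL-1, TNF and NF-kappaB signalling, 5 rose and 1 fell in the 5-month high-risk livers, and 8 rose and 1 fell in uninvolved tissue of 10 months, each against low-risk livers, where 20.3% and 27.7% of all genes were higher. Tnfaip3, a brake on NF-kappaB, rose by 1.42 ± 0.25 (edgeR adjusted p = 2.26e-05) and 1.39 ± 0.25 (adjusted p = 0.000272) at these ages. Relb rose by 1.56 at 5 months, and Il1rn, the IL-1 receptor antagonist, by 2.43 ± 0.31 at 10 months (adjusted p = 1.08e-05). Nfkbiz, a cofactor needed for Lcn2 induction, rose by 0.67 at 10 months. Il1rap, the accessory chain of the IL-1 receptor, fell by 0.93 at 5 months, and Il1r1 was lower in tumors than in uninvolved tissue (-0.43).

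Among 9 receptors and binding partners of the members, Cd163, the macrophage receptor for haptoglobin bound to hemoglobin, changed most. It had 2.97 ± 3.97 CPM (SD, n = 10) in high-risk and 26.2 ± 7.61 CPM (SD, n = 16) in low-risk livers of 5 months, a log2 fold change of -3.20 ± 0.52 (edgeR adjusted p = 1.54e-05). At 10 months it had 1.12 ± 0.368 CPM (SD, n = 5) in uninvolved tissue against 25.98 ± 5.76 CPM (SD, n = 5) in low-risk livers, or -4.51 ± 0.24 (adjusted p = 2.7e-09), while Hp itself did not pass in either. Macrophage markers moved in both directions beside it: 3 of 8 were higher and 2 lower at 5 months, and 2 higher and 5 lower at 10 months. Their sums overlapped, at 229 to 549 against 262 to 513 CPM and at 197 to 373 against 333 to 433 CPM, and their part was not tested. Cd36, a scavenger receptor that binds serum amyloid A, rose by 1.98 ± 0.27 in high-risk livers of 5 months (adjusted p = 1e-06) and by 1.08 in tumors against uninvolved tissue, and Fcgr2b, an Fc receptor that binds pentraxins, was at -0.43 and -0.38 in these comparisons, where it was called in both.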

How the data were processed

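Per the labels, RNA was extracted with RNeasy and DNase and made into TruSeq stranded total RNA libraries. Per the submitters' processing notes, Trim Galore, HISAT2, featureCounts and mm10 were used. The authors deposited whole-number counts per gene, adjusted between sequencing batches by ComBat-seq per the file name, with settings, strand use and read assignment not given in the sources used here. Such adjustment can shrink or shift differences at 5 months, the only age with 2 batches.

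The main test was edgeR's robust quasi-likelihood F test (version 4.0.16, R 4.3.3), after filterByExpr and TMM scaling, with Benjamini-Hochberg adjustment over every gene tested and a threshold of 0.05. One model held the non-tumor groups of each age, and at 5 months it had a batch term. Tumors were set against uninvolved samples and against vehicles in models of their own, and ages were compared among batch 1 vehicles. A standard error is the fold change divided by the square root of F, and 95% intervals use the t distribution with the degrees of freedom of the fit. CPM used TMM library sizes over all samples, and log2 values a pseudocount of 0.1. The fits were tested on simulated counts.

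Tumor and uninvolved libraries with the same number in their labels were taken to come from the same mouse. Over 9775 genes the deviations of same-numbered libraries correlated at 0.241 to 0.629 in the 4 pairs without mice 3 and 6. For numbers 3 and 6, whose uninvolved libraries were nearly alike, the pairing was not checked.

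The members, the gene lists and the tests were chosen with earlier results of these data known. All 10 members are reported, and of each list up to 3 called genes with the smallest adjusted p in 3 comparisons. The alternatives were DESeq2 1.42.0, RLE size factors, no filter, no batch covariate, batch 1 only, other groupings of libraries, the mouse as a block and leaving out samples, part of which was added after seeing the data.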

Additional observations from a re-analysis of the deposited data

Results flagged for a closer look

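Lcn2 in 3-week TBT liver 2 was 70.9 CPM, far from the 9.39 to 23.7 CPM of the other 7 livers of its group. Of 80 combinations of member and group of 4 to 10 samples examined for a single distant sample, this was the 1 that stood out. Chance alone flags about 1 in 20 of such combinations, so 1 among 80 is no more than chance gives.

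The 10-month vehicle library labelled as a tumor was in no comparison. It held 169 CPM of Lcn2, 96.4 CPM of Orm2 and 3.99 CPM of Orm3, each above all 6 vehicle livers (at most 21.8, 29.2 and 1.80 CPM). It had fewer counts than the vehicles, 11.5 M, and a mitochondrial share of 14.1%, against 3.14% to 3.83% in them, and its Orm1, Hp, Crp, Itih4 and Saa3 were below all of them. Its duct markers summed to 186 CPM, against 38.0 to 54.0 CPM in the vehicles.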

How the results depend on the processing

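The number of members called changed by over 1.5 times under few settings. With low-count genes kept in, it was 1 between high-risk and low-risk livers of 5 months, 1 between high-risk livers and vehicles, 1 between uninvolved and low-risk tissue (2 in each with the filter) and 3 between 10-month and 5-month vehicles (6 with it). In batch 1 only it was 1 against low-risk livers and 0 against vehicles. Without the libraries that stood apart it was 1 against low-risk livers. With uninvolved libraries 3 and 6 kept separate it was 4 between uninvolved and low-risk tissue, where Orm2 and Orm3 joined, and with the tumor-labelled vehicle library among the vehicles it was 2 between uninvolved tissue and vehicles. The replicate block by mouse gave 2 between tumors and uninvolved tissue with 6 pairs and 2 with the 4 pairs without mice 3 and 6, against 0 unpaired.

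Leaving out a sample at a time, the counts ran from 2 to 4 (high-risk against low-risk, 4 without high-risk 1), 1 to 2 (high-risk against vehicle), 1 to 4 (uninvolved against low-risk, 4 without low-risk 8) and 0 to 1 (tumor against uninvolved, 1 without the summed sample 3 and 6). Plain library sizes put Orm1 in 10-month vehicles at 538.9 CPM (596 with TMM) and Crp in uninvolved tissue at 187 CPM (168 with TMM).

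No called value reversed. Among values that never passed, Lcn2 between high-risk and low-risk livers became -0.086 with no batch term and -0.21 in batch 1, with -0.80 to 1.17 over samples left out. Orm2 became -0.69 in batch 1, with -0.90 to 1.07. Between tumors and vehicles Saa2 became 0.018 with the tumor-labelled library as a vehicle (-0.32 to 0.93 over samples left out) and Saa1 ran from -0.43 to 0.66. Between tumors and uninvolved tissue Orm2 was -0.074 in the replicate block of 6 pairs, and Itih4 was 0.11 in that of 4 pairs, 0.031 in a fit of all 10-month groups and -0.084 to 0.081 over samples left out (0.042 without uninvolved 12). Between uninvolved and low-risk tissue, samples left out gave -1.12 to 0.38 for Saa2, -0.95 to 0.21 for Saa1 and -0.36 to 0.0010 for Hp (-0.33 without low-risk 4). The cause of these changes was not tested. Over single members, 1267 values kept their direction and side of the threshold, 40 lost a call, 30 gained one and 35 reversed. Orm3 at 3 weeks, with at most 23 counts per sample, and group sizes of 5 to 7 at 10 months limit the precision.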
